A study of Homo sapiens with 2 samples.

Results

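The let-7 family guide strands are the 9 mature miRNAs hsa-let-7a, hsa-let-7b, hsa-let-7c, hsa-let-7d, hsa-let-7e, hsa-let-7f, hsa-let-7g, hsa-let-7i and hsa-miR-98, chosen by name among the 1329 probes of a human miRNA array, of which 879 were for mature miRNAs and 450 for precursors. The passenger strands, which the array names with a star, and the precursors of the same genes are not members and are described separately. Total RNA of MKN1, a cell line established from a human gastric cancer, was taken after 24 h of hypoxia (1% O2) or of normoxia (20% O2), labeled with biotin and hybridized to 1 array per condition. The labels describe both cultures alike otherwise and name no transgene or drug. Values are signal intensities on a linear scale, and the fold is the hypoxia signal over the normoxia signal. The study's methods state a normalization on global signal intensity, and whether the deposited values carry it was not tested. With 1 array per condition there is no replicate error, no test between conditions was possible, and having only 2 arrays limits how precise any value below can be.

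let-7 miRNAs are among the most conserved miRNAs of animals. They repress mRNAs that pair with their seed, bases 2 to 8. Human targets such as the RAS genes and HMGA2 are a reason why the family is known as a tumor suppressor. The family is also known as a mark of differentiated cells. The RNA-binding proteins LIN28A and LIN28B block the processing of let-7 precursors, and let-7 has been described as a hypoxia-responsive miRNA that acts on AGO1 in endothelial cells. The comparison here asks how the family stood in gastric cancer cells after a day of low oxygen.

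The guide strands are printed because the members differ by so few bases that their sequences bear on what each probe can tell. All 9 matched the RefSeq miRNA table of GRCh38.p14 by name, and the capitals mark the seed (bases 2 to 8).
hsa-let-7a: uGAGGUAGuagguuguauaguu
hsa-let-7b: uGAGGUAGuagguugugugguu
hsa-let-7c: uGAGGUAGuagguuguaugguu
hsa-let-7d: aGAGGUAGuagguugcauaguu
hsa-let-7e: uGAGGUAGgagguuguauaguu
hsa-let-7f: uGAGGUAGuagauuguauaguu
hsa-let-7g: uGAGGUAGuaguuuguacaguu
hsa-let-7i: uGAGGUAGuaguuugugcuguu
hsa-miR-98: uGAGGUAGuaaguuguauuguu
All 9 are 22 bases long and carry the same seed, GAGGUAG. They share 14 of the 22 positions, and apart from position 1 the differences lie between positions 9 and 19. Counted from 1 at the 5′ end with the base of let-7a first, let-7e differs from let-7a by U9G, let-7f by G12A and let-7c by A19G. let-7b differs by A17G and A19G, let-7d by U1A and U16C, let-7g by G12U and U18C, and miR-98 by G11A and A19U. let-7i differs by 4 bases, G12U, A17G, U18C and A19U. Over the 36 pairs of members the number of different bases ran between 1 and 6. The array's probe sequences were not analysed here, and how far a probe separates members that differ by 1 base was not tested.

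In the RefSeq annotation of GRCh38.p14 the family comes from 12 genes on 8 chromosomes. The guide of let-7a lies at chr9:94175962-94175983 (+ strand), chr11:122146568-122146589 (- strand) and chr22:46112752-46112773 (+ strand), so its probe cannot tell these 3 genes apart. That of let-7f lies at chr9:94176353-94176374 (+ strand) and chrX:53557246-53557267 (- strand). The other guides come from 1 gene each, with let-7d at chr9:94178841-94178862, let-7b at chr22:46113691-46113712, let-7c at chr21:16539838-16539859, let-7e at chr19:51692793-51692814 and let-7i at chr12:62603691-62603712 (all + strand), and let-7g at chr3:52268336-52268357 and miR-98 at chrX:53556299-53556320 (both - strand). The let-7a-1, let-7f-1 and let-7d genes lie together on chromosome 9 within the long non-coding RNA gene MIRLET7A1HG. let-7f-2 and miR-98 lie within the protein-coding gene HUWE1, and let-7g lies within WDR82. The let-7c, let-7a-2 and let-7i genes lie within the long non-coding RNA genes MIR99AHG, MIR100HG and MIRLET7IHG, and let-7e lies within SPACA6.

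Every guide strand of the family was bright on both arrays, and as deposited none differed by 1.5-fold or more between hypoxia and normoxia. No signal listed above 0 was under 20, whereas the 9 members ranged between 2547 and 10886 under hypoxia and between 3510 and 11977 under normoxia. As deposited, 6 members were higher and 3 lower under hypoxia, but 3 were higher and 6 lower after median centring, and all 9 were higher after scaling on the 75th percentile of the signals above 0. After quantile normalization, scaling on the total or the mature signal, or removal of the trend of fold with signal, 8 were higher and 1 was lower. Among the 510 mature probes with a signal on both arrays, 46.5% were lower under hypoxia, 34.3% differed by over 1.5-fold in either direction and 11.4% by over 2-fold, the threshold of the study's methods. None of the 9 members passed either mark as deposited. Past 1.5-fold were 6 members after scaling on the 75th percentile of signals above 0 (let-7b, let-7c, let-7d, let-7f, let-7g and let-7i, all higher), miR-98 after median centring (log2 fold -0.60), and let-7f with the trend removed (0.60) or with quantile normalization (0.75). None passed 2-fold under any scaling.

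The signal of let-7g was 5537 under hypoxia and 4540 under normoxia, a fold of 1.22. That of let-7f was 7717 under hypoxia and 6354 under normoxia (1.21-fold). That of let-7d was 5911 under hypoxia and 4868 under normoxia (1.21-fold). These 3 members had the highest folds of the family, with log2 folds of 0.29, 0.28 and 0.28. let-7d and 1 copy of let-7f are encoded together on chromosome 9, but so is a copy of let-7a, which was lower as deposited (-0.14). The other copy of let-7f is encoded near miR-98, the lowest member (-0.46), and let-7g is encoded on chromosome 3. let-7g, let-7f and let-7d stayed the 3 highest and above 0 under all 10 scalings and pseudocounts compared, between 0.14 and 0.84 on the log2 scale. A single factor between the arrays cannot change the order of the members, and the pseudocounts are small beside these signals. Only quantile normalization and removal of the trend could therefore change the order appreciably.

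let-7c, let-7b and let-7i formed a middle group near a fold of 1. let-7c had 4278 under hypoxia and 3993 under normoxia (1.07-fold). let-7b had 5071 under hypoxia and 4883 under normoxia (1.04-fold), and let-7i had 5341 under hypoxia and 5219 under normoxia (1.02-fold). All 3 were above 0 on the log2 scale as deposited and below it after median centring, at -0.037 for let-7c, -0.082 for let-7b and -0.10 for let-7i.

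let-7e, let-7a and miR-98 were lower under hypoxia as deposited. let-7e had 4578 under hypoxia and 4788 under normoxia (log2 fold -0.065), and let-7a, the brightest probe of the family, had 10886 under hypoxia and 11977 under normoxia (-0.14). The log2 folds of both were above 0 after quantile normalization (0.11 for let-7e and 0.52 for let-7a), after both scalings on summed signal, after removal of the trend and with the 75th percentile of signals above 0. miR-98, named apart from let-7 although it has the same seed, had the lowest signal of the 9 on each array, 2547 under hypoxia and 3510 under normoxia, and the lowest fold, 0.726 (log2 fold -0.46). It stayed the lowest of the 9 under all 10 settings, although only quantile normalization and removal of the trend could change the order appreciably. Its log2 fold was below 0 in 9 of the settings, with 0.092 after scaling on the 75th percentile of signals above 0.

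**Figure D1:**
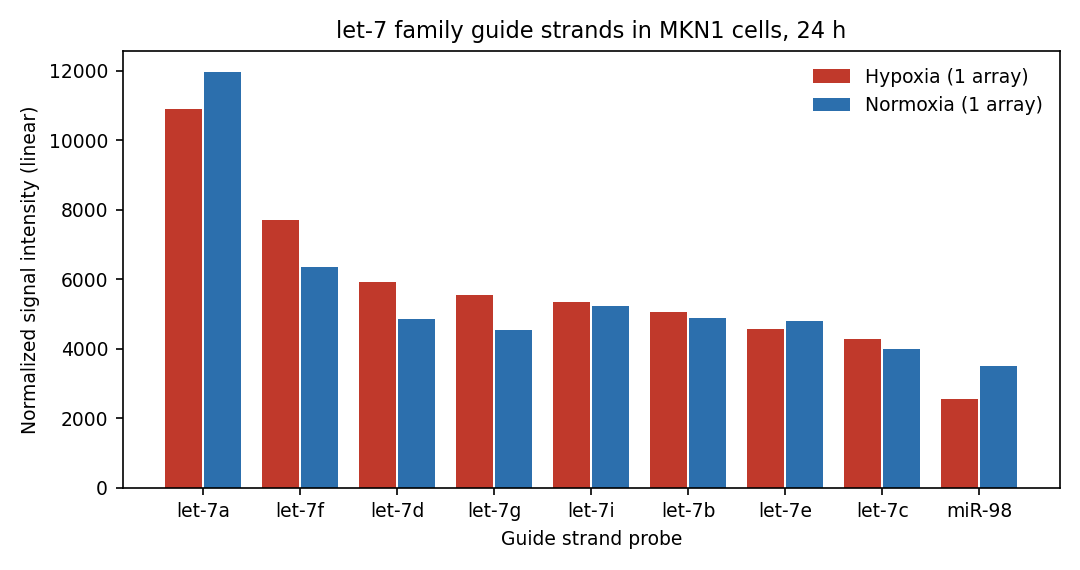
Signal intensity as deposited (linear axis, from 0) of the 9 guide strand probes, ordered by hypoxia signal. The axis title calls it normalized, which was not tested. Hypoxia is on the left and normoxia on the right of each pair, with 1 array per condition, so without error bars. let-7f, let-7d and let-7g stand 1.21-fold to 1.22-fold higher under hypoxia and miR-98 stands at 0.726 of its normoxia signal.

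As deposited, the 9 signals summed to 51866 under hypoxia and 50132 under normoxia, a ratio of 1.03, which was 0.942 after median centring and 1.52 after scaling on the 75th percentile of signals above 0. This sum was 5.92% of all mature signal under hypoxia and 4.93% under normoxia, where all mature signals summed to 875503 under hypoxia and 1017189 under normoxia. The largest part of the sum came from let-7a, with 21.0% under hypoxia and 23.9% under normoxia, and the smallest from miR-98, with 4.91% under hypoxia and 7.0% under normoxia. Without let-7a the sum was 40980 under hypoxia and 38155 under normoxia, a ratio of 1.07. Probes differ in how they bind and label, so these shares describe signal and do not give the amounts of the miRNAs in the cells.

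Members with near-identical sequences did not always have near-identical folds. The log2 folds of let-7a and let-7f, which differ by G12A alone, were 0.42 apart, while let-7a and let-7e, which differ by U9G alone, were 0.073 apart. The 2 other pairs with a single different base, let-7a with let-7c and let-7b with let-7c, were 0.24 and 0.045 apart. let-7d and let-7f differ by 3 bases, and their log2 folds were 0.0003 apart. The median distance between log2 folds was 0.16 over the 4 pairs with 1 different base, 0.29 over 10 pairs with 2, 0.23 over 11 pairs with 3 and 0.23 over 9 pairs with 4. The pairs share members and all come from the same 2 arrays, so these distances are a description.

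On these arrays bright probes tended to be lower and dim probes higher under hypoxia, so each member was set beside the 40 mature probes outside the family that were nearest to it in mean log2 signal. The sets overlap, and those of let-7b and let-7g are the same 40 probes, so the 9 comparisons are not independent. Together they held 86 probes, of which 62 had a lower signal under hypoxia, and the median of all 86 log2 folds was -0.27. The log2 folds of 8 members were above the median of their set and 7 were above its upper quartile, and miR-98 was below the median.

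let-7f had a log2 fold of 0.28 where its equally bright probes had a median of -0.39, and it was above 38 of the 40. let-7d was above 38 of its 40 (median -0.33) and let-7g above 37 of its 40 (median -0.30). let-7b and let-7i were each above 33 of 40, let-7c above 32, let-7a above 31 and let-7e above 29. let-7a, lower by its own fold of 0.909, therefore stood 0.32 above its 40 nearest probes on the log2 scale, whose median was -0.46. These were only roughly as bright, with mean signals between 4355 and 27309 beside 11418.5 for let-7a. miR-98 was above only 8 of its 40 probes, 0.34 below their median of -0.12. The median difference between a member and its set was 0.36, and 8 of 9 differences were above 0 under each of 14 alternatives, including all scalings, where the median difference lay between 0.31 and 0.40. A single scaling factor between the arrays cancels in this difference by construction, so the alternatives that only apply such a factor could not change it. The difference has no replicate error, and a spot effect on 1 array and a condition effect cannot be told apart with 1 array per condition.

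**Figure D2:**
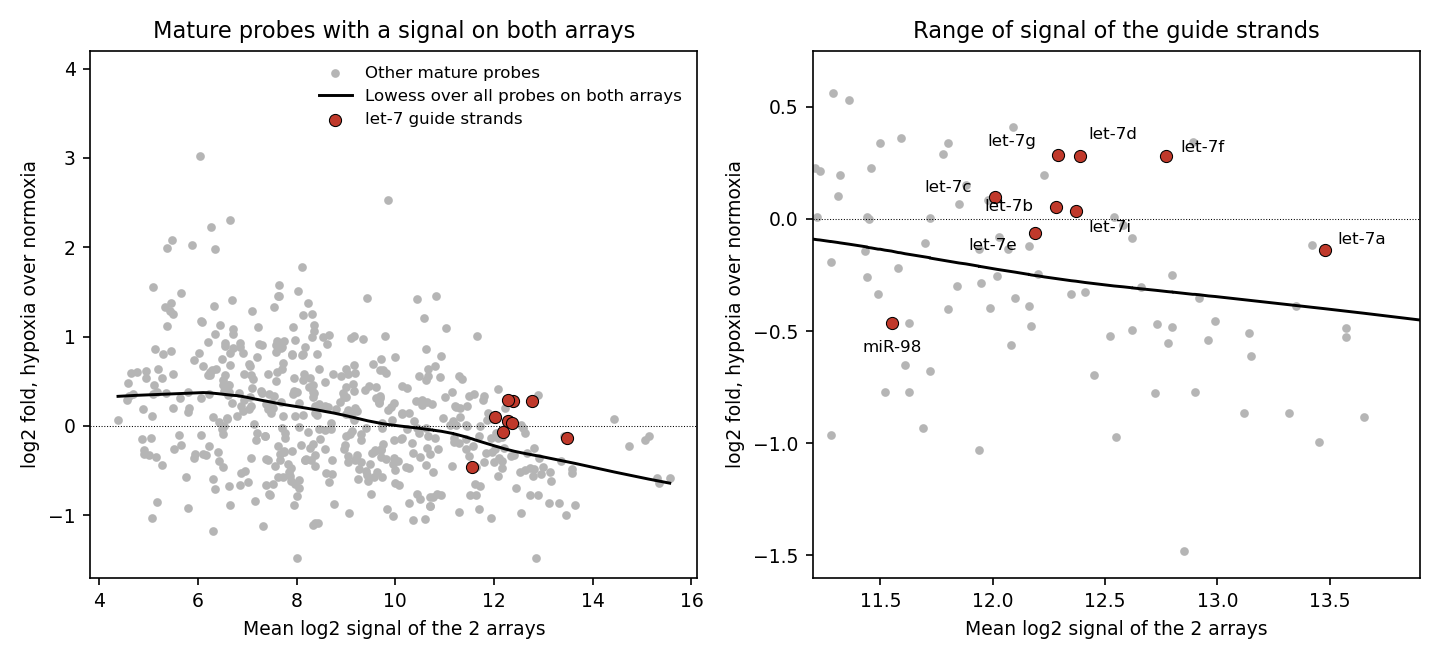
Log2 fold of hypoxia over normoxia against mean log2 signal for the 510 mature probes with a signal on both arrays (left) and for the signal range of the family (right), with the 9 guide strands in red, other mature probes in grey and the lowess curve over all probes on both arrays as a line. Of the guide strands, 8 lie above the curve and miR-98 lies below it.

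**Figure D3:**
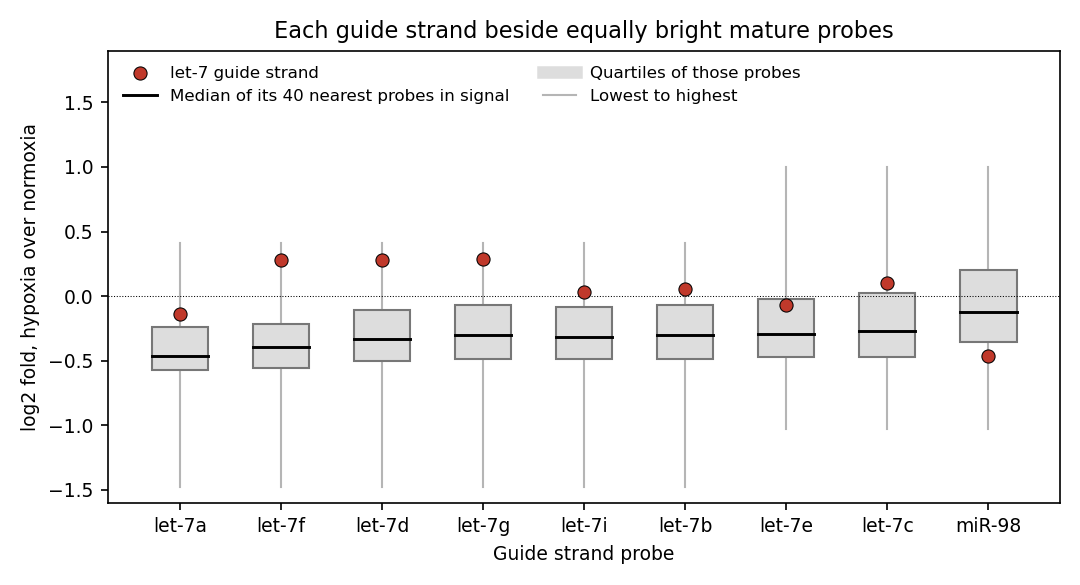
Log2 fold of each guide strand (point) beside its 40 nearest mature probes in signal outside the family, drawn as the median (line), the quartiles (box) and the lowest to the highest value (grey line). let-7f, let-7d and let-7g stand 0.67, 0.61 and 0.59 above their medians, and miR-98 stands 0.34 below its own.

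The rank of a signal within its array does not depend on a scaling factor. Ranked from the brightest among the 879 mature probes, let-7a was 9th under hypoxia and 15th under normoxia, and let-7f was 17th under hypoxia and 36th under normoxia. let-7d was 30th under hypoxia and 49th under normoxia, and let-7g was 35th under hypoxia and 55th under normoxia. The ranks of let-7i (36th under hypoxia, 45th under normoxia), let-7b (40th, 48th), let-7e (46th, 50th) and let-7c (52nd, 65th) moved the same way. miR-98 was the exception, at 93rd under hypoxia and 73rd under normoxia. These ranks restate the comparison with equally bright probes and are not separate evidence. let-7a and let-7e stood higher in rank under hypoxia although their own signals were lower as deposited. Over the whole signal range of the family, 60 other mature probes had a mean signal between those of miR-98 and let-7a. As deposited, 48 of these were lower under hypoxia (33 after quantile normalization and 16 after scaling on the 75th percentile of signals above 0), 14 of them by over 1.5-fold, and 1 was higher by over 1.5-fold. For comparison, miR-210, which is induced by hypoxia in many cell types, had 2219 under hypoxia and 383 under normoxia (5.79-fold).

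Passenger strands, the strands of the hairpin that are usually discarded, were dimmer than every guide strand, and 3 of the 4 with a signal on both arrays were lower under hypoxia as deposited. The array held 9 of the 11 listed, of which 4 had a signal on both arrays, 4 were listed at 0 on both (let-7c*, let-7d*, let-7f-2* and let-7g*) and let-7e* was listed at 0 under normoxia and at 24.7 under hypoxia. The 4 measured ones are printed with bases 2 to 8 in capitals, which 3 of them share.
hsa-let-7a*: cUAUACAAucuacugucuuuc
hsa-let-7b*: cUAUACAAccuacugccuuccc
hsa-let-7f-1*: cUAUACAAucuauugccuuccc
hsa-let-7i*: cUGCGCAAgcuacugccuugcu
let-7a* had 109 under hypoxia and 237 under normoxia, 2.17-fold lower (log2 fold -1.12), while its guide was at a fold of 0.909. As deposited it was the only probe of the let-7 loci listed here past 2-fold, and it was short of 2-fold with 50 added to each signal (-0.85) or with the arrays scaled to the same total signal (-0.92), mature signal (-0.90) or 75th percentile of signals above 0 (-0.56). let-7b* had 1064 under hypoxia and 689 under normoxia (1.54-fold), with its guide at 1.04-fold. let-7i* had 104 under hypoxia and 147 under normoxia (1.41-fold lower) and let-7f-1* had 33 under hypoxia and 44.7 under normoxia (1.35-fold lower). The median log2 fold of the 4 was -0.47, and after scaling on the 75th percentile of signals above 0 only 1 of them was lower and let-7b* was past 2-fold (1.18). Over all 82 star-named mature probes with a signal on both arrays the median was -0.023, and 42 were lower.

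Most precursor probes of the family had no signal on either array, and none of those with a signal on both differed by 1.5-fold as deposited. Of 12 precursors on the array 4 had a signal under both conditions, 7 were listed at 0 on both arrays (those of let-7a-2, let-7a-3, let-7b, let-7c, let-7f-2, let-7g and miR-98) and let-7f-1-pre was listed at 0 under normoxia and at 22.3 under hypoxia. let-7i-pre, the brightest, had 1826 under hypoxia and 1908 under normoxia (log2 fold -0.063), beside 0.033 for its guide. let-7a-1-pre had 784 under hypoxia and 666 under normoxia (0.24), and let-7e-pre had 305 under hypoxia and 273 under normoxia (0.16), both opposite in sign to their guides as deposited. let-7d-pre had 73.7 under hypoxia and 100 under normoxia (-0.44), whereas the guide let-7d was among the 3 highest. As deposited 2 of the 4 were lower, and their median was 0.049, whereas 52 of the 153 precursor probes of the array with a signal under both conditions were lower, with a median of 0.28. After scaling on the 75th percentile of signals above 0 none of the 4 was lower, and let-7a-1-pre (0.79) and let-7e-pre (0.72) were past 1.5-fold. With the trend removed or with quantile normalization 3 of the 4 were lower, with let-7e-pre at -0.040 and -0.046. let-7d-pre was past 1.5-fold lower with the trend removed (-0.80) or with quantile normalization (-0.84). The sources used here do not say what a 0 stands for, and no fold was calculated against one.

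Some let-7 genes are transcribed together with miR-99, miR-100 and miR-125 genes, miRNAs with other seeds. Of 11 such mature probes 8 had a signal on both arrays, and miR-99a*, miR-100* and miR-125b-1* were listed at 0. As deposited 7 of the 8 were lower under hypoxia and 1 was higher, and their median log2 fold was -0.34, beside 46.5% lower and a median of 0.076 over all mature probes. Only 4 were lower after scaling on the total signal, the mature signal or the 75th percentile of signals above 0. Beside let-7e, miR-99b had 319 under hypoxia and 584 under normoxia (1.83-fold lower) and miR-125a-5p had 146 under hypoxia and 229 under normoxia (1.57-fold lower), with let-7e itself at a fold of 0.956. The other probes of that transcript, miR-125a-3p and miR-99b*, had log2 folds of -0.11 and -0.097. miR-100, of the let-7a-2 transcript, had 200 under hypoxia and 314 under normoxia (1.57-fold lower). miR-99a, of the let-7c transcript, had 193 under hypoxia and 284 under normoxia (1.47-fold lower), and miR-125b-2* of the same transcript had a log2 fold of -0.069. miR-125b, made from both of these transcripts, had 1026 under hypoxia and 664 under normoxia (1.55-fold higher). None passed 2-fold as deposited, 3 were over 1.5-fold lower and 1 was over 1.5-fold higher, beside 34.3% of all mature probes past 1.5-fold in either direction. All 8 were dimmer than every let-7 guide strand.

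**Figure D4:**
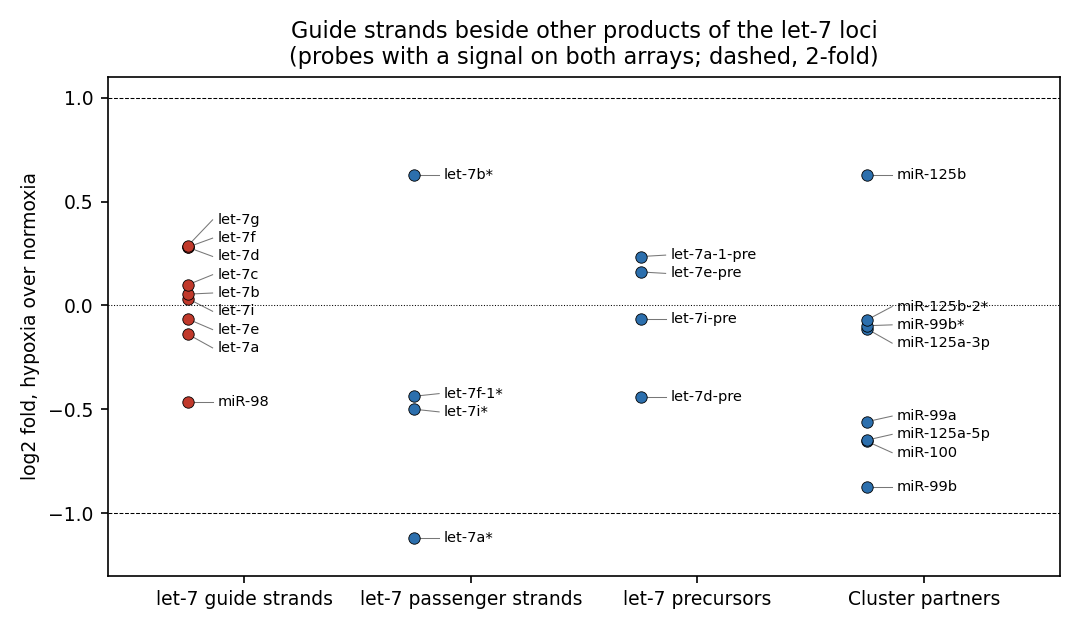
Log2 fold of hypoxia over normoxia (vertical axis) for the guide strands in red and, in blue, the passenger strands, precursors and cluster partners of the same loci with a signal on both arrays, 1 point per probe, with dashed lines at 2-fold. The guide strands lie between -0.46 and 0.29, and let-7a* at -1.12 is the only point beyond 2-fold.

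Outside the family, 3 mature miRNAs of the RefSeq table share bases 2 to 7 with let-7, namely miR-202-3p, miR-4458 and miR-4500, of which only miR-202 is named on the array. Its sequence is printed with those bases in capitals, since it does not share the last base of the let-7 seed.
hsa-miR-202-3p: aGAGGUAuagggcaugggaa
The probe named miR-202 had 31.3 under hypoxia and 40 under normoxia (log2 fold -0.35), close to the lowest signals listed on the arrays.

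**Figure D5:**
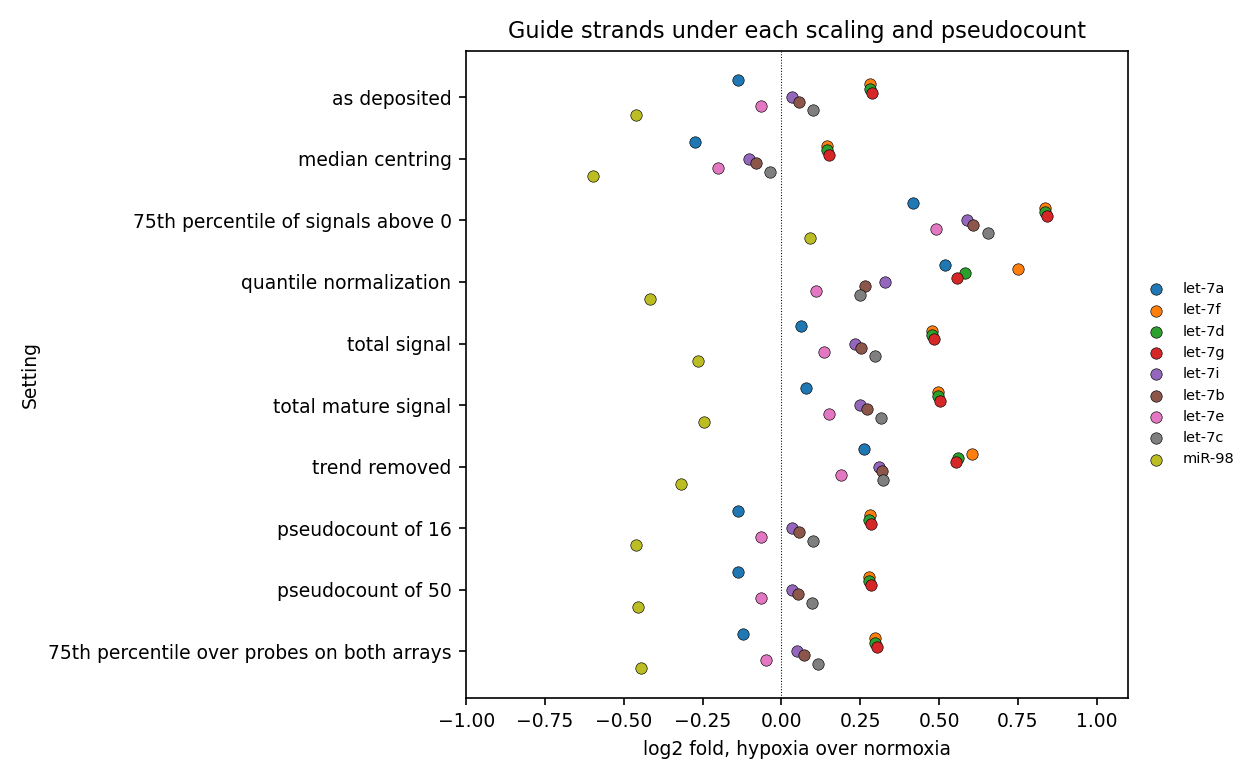
Log2 fold of hypoxia over normoxia (horizontal axis) of the 9 guide strands under each scaling and pseudocount (vertical axis), 1 coloured point per member, set slightly apart in height so that points do not hide each other. let-7d, let-7f and let-7g are the 3 highest and miR-98 the lowest in all 10 settings, while the place of 0 among the members moves with the scaling. Only quantile normalization and removal of the trend could change the order of the members appreciably.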

How the data were processed

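The authors labeled total RNA with biotin, hybridized it to GenoSensor arrays and read the spots with GeneSpring GX (version not stated in the sources). Their methods state a global normalization of signal intensity. The deposited values are signal intensities on a linear scale. All 447 signals above 0 and under 100 were spaced as means of 3 spots (tolerance 0.02). A factor applied to such means would in general break this spacing. All signals summed to 1001867 under hypoxia and 1149819 under normoxia, so the totals of the 2 arrays were not equal. The folds as deposited may therefore be unscaled between the arrays, which was not tested. The same signals stood in each of the 2 deposited tables for all 1329 probes. Of these, 837 had a signal under hypoxia and 665 under normoxia. The deposited ratios, p-values and detection marks were not used.

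Folds of hypoxia over normoxia were calculated without a pseudocount or filter for the 663 probes that both arrays list above 0. The scripts were tested on simulated data. The text names all members, the listed products of their loci that are on the array, seed relatives and the mature probe nearest in both log2 signals. Members and lists were chosen with earlier results of these data known, and the miR-17, miR-30 and miR-29 families after their values were seen. Alternatives were other scalings, lowess removal of the trend (span 0.4), pseudocounts of 16 and 50, a threshold of 1.5-fold, 20 or 80 nearest probes or nearness on 1 array, and leaving out each member. Sequences and positions came from RefSeq (GRCh38.p14). Tables were handled with pandas 2.3.3 and numpy 2.4.6 in Python 3.11.15, the lowess curve was fitted with statsmodels 0.14.6, and figures were drawn with matplotlib 3.10.9.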

Additional observations from a re-analysis of the deposited data

How the results depend on the processing

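No paired analysis was possible because each condition has a single array. As deposited, 3 of 9 members were lower, the median log2 fold was 0.055 and the ratio of the summed signals was 1.03. Median centring, which shifts all probes by -0.14, gave 6, -0.082 and 0.942. Scaling on the 75th percentile of signals above 0, which shifts them by 0.55, gave 0, 0.61 and 1.52, and that percentile takes in 174 probes that only the hypoxia array lists above 0. Quantile normalization gave 1, 0.33 and 1.32, the total signal 1, 0.25 and 1.19, the mature signal 1, 0.27 and 1.20, and removal of the trend 1, 0.32 and 1.27. The other deposited table, both pseudocounts and, added after the data were seen, the 75th percentile over probes on both arrays gave 3 lower members each. No member passed 2-fold in any of these. Past 1.5-fold were 0 members as deposited, 6 with the 75th percentile of signals above 0, and 1 each with the trend removed, with median centring and with quantile normalization. Leaving out 1 member kept the median between 0.044 and 0.077 and the ratio between 1.01 and 1.07. The 3 lower passenger strands became 1, the 2 lower precursors 0 and the 7 lower cluster partners 4 with the 75th percentile of signals above 0, and lower precursors were 1 and lower cluster partners 4 with the total or the mature signal. Lower precursors were 3 with quantile normalization or with the trend removed. The 1 passenger strand past 2-fold became 0 with the total signal, the mature signal or 50 added, and 2 were past 1.5-fold. No cluster partner was past 2-fold as deposited, and 4 passed 1.5-fold. miR-99b was past 2-fold lower after median centring (-1.008), quantile normalization (-1.006) or removal of the trend (-1.016). A different partner, miR-125b, was past 2-fold higher with the 75th percentile of signals above 0 (1.18). Apart from the thresholds, the cause was not tested. Probes with signals near 20, the lowest listed, leave little room to measure a lower value.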

Other observations

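Among families of similar brightness, 6 bright guide strands of the miR-17 seed family were listed (miR-17, miR-20a, miR-20b, miR-93, miR-106a and miR-106b). This family promotes proliferation in many tumors. A dimmer probe of the same seed, miR-519d, was not listed and was higher as deposited (log2 fold 0.32, mean log2 signal 7.06). The 6 listed were all lower under hypoxia as deposited, with a median log2 fold of -0.49. They ranged between -0.68 for miR-20a and -0.12 for miR-93. Of these 6, 4 were lower after quantile normalization and 1 with the 75th percentile of signals above 0. All 5 miR-30 guide strands, abundant in epithelial cells, were lower too, with a median of -0.34 and a range between -0.69 for miR-30a and -0.25 for miR-30b, but 3 were lower after quantile normalization and 2 with that percentile. These counts stand beside the 60 other mature probes in the signal range of the let-7 guide strands, of which 80% were lower as deposited. The miR-29 guide strands went the other way as deposited. Their log2 folds were 0.23 for miR-29a, 0.34 for miR-29b and 0.32 for miR-29c, at mean log2 signals of 11.46, 12.89 and 11.01. The let-7 guide strands ranged between -0.46 and 0.29 around a median of 0.055. The miR-17, miR-30 and miR-29 families were chosen after their values were seen, and the difference between families was not tested.

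For each let-7 guide strand the mature probe outside the family nearest to it in both log2 signals was looked up, over the 2 arrays. miR-93, with 10538 under hypoxia and 11413 under normoxia, was nearest to let-7a at a distance of 0.084 on the log2 scale. miR-365 was nearest to let-7c (0.046) and miR-106a to let-7e (0.065). miR-29b, with 8577 under hypoxia and 6761 under normoxia, was nearest to let-7f (0.18). miR-574-5p, with 5148 under hypoxia and 4492 under normoxia, was nearest to let-7b, let-7d, let-7g and let-7i, at distances of 0.12, 0.23, 0.11 and 0.22. miR-1229, with 2569 under hypoxia and 3241 under normoxia, was nearest to miR-98 (0.12). Nearness over 2 arrays is a description of 2 values.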
